A study of Mus musculus with 12 samples.

Results

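The transcripts described here belong to 44 mouse genes of the unfolded protein response, the integrated stress response and the heat shock response, out of 55573 genes in the deposited count table. They were taken by name, apart from the one gene named next, and fall into 4 arms: 11 genes of the ATF4 and integrated stress arm, 9 aminoacyl-tRNA synthetases, 14 genes of the endoplasmic reticulum (ER) arm and 10 heat shock genes. All 44 passed the filter on low counts, which left 16761 genes for testing. The glutamyl-prolyl-tRNA synthetase gene Eprs was chosen by its measured rise with VIP in these libraries, so its values are given as a description with no test.

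The cells were astrocyte-enriched cortical cultures, made from the forebrains of C57BL6/J pups at postnatal day 0 to 2 and replated on day 7 in vitro after shaking off other glia. All cultures were infected with lentivirus for 5 days, either pCIG3 (a CMV promoter followed by IRES-GFP; the control virus) or a vector for ACREB, a dominant-negative protein that keeps the transcription factor CREB from its DNA sites. They were then given PBS or 0.5 µM vasoactive intestinal peptide (VIP), a neuropeptide whose receptors raise cyclic AMP, for 30 min, and RNA was taken after 90 min of recovery. The 4 groups, called control PBS, control VIP, ACREB PBS and ACREB VIP, had 3 libraries each, numbered 1 to 3. The labels do not say whether the 3 libraries of a group came from separate cultures or litters, so a p-value here reflects the spread among libraries, which may be technical. Libraries of the same number deviated together from their group means. The p-values come from a fit that leaves this pairing out, unless the library number is named as a block.

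When unfolded proteins build up in the ER lumen, the sensors IRE1 (gene Ern1), ATF6 and PERK respond: IRE1 splices Xbp1 mRNA, ATF6 is cut to release a transcription factor, and PERK phosphorylates the translation factor eIF2. Phosphorylated eIF2 slows translation in general while ATF4 mRNA is translated more, and ATF4 then drives genes for amino acid supply, tRNA charging and redox balance. In the cytosol, unfolded protein frees the transcription factor HSF1, which drives the chaperone genes. Much of the control in these pathways acts on translation, splicing and protein cleavage, none of which gene-level counts can show. Astrocytes use the serine synthesis enzymes Phgdh and Psat1, both in the ATF4 arm, to supply L-serine to the brain.

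Each library held 16571398 to 20529238 counted fragments, and levels are given as CPM (counts scaled to a common library size) after normalisation for library composition. Summed over 10 astrocyte markers, the level lay between 6574 and 7676 CPM in every library. Microglial markers summed to 930.4 to 2429 CPM, 7 fibroblast and mural markers to 1886 to 3032 CPM, of which the muscle actin gene Acta2 made up most at a mean of 2149 CPM, and 7 neuronal markers to 297 to 479.6 CPM, mostly Map2 at a mean of 302 CPM. The 5 endothelial markers summed to 21.6 to 57.5 CPM, and 8 markers of the oligodendrocyte lineage summed to 1146 to 1598 CPM in control PBS against 1005 to 1130 CPM in control VIP. With ACREB the sums of these 8 markers overlapped, at 1076 to 1182 CPM in PBS and 932 to 1148 CPM in VIP. Within these lists the levels were uneven. Col1a1, Col1a2 and Pdgfrb (fibroblast and mural) averaged 56.7, 53.9 and 28.8 CPM, Stmn2 and Tubb3 (neuron) 71.7 and 28.7 CPM, and Kdr and Flt1 (endothelium) 25.8 and 10.9 CPM. Cldn5 (endothelium) was at 0, and Rbfox3 and Slc17a7 (neurons), Mog (oligodendrocytes), Lum (fibroblasts), Pecam1 and Cdh5 (endothelium) averaged under 1 CPM. No marker passed the test for VIP in control virus, and the part of other cells in the results below was not tested. In these bulk samples, fewer cells of a type and less RNA per cell cannot be told apart.

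The library control PBS 2 stood apart from the other 11. It was the highest of the 12 libraries for 29 of the 44 genes and the lowest for 12 of them, and over all genes tested it was the highest or the lowest library for 61.4%, against 7.81% to 21.4% for the others. A smooth trend on GC content and transcript length accounted for 43.7% of the variance of its deviations from the gene means, against 0.543% to 18.8% in the other libraries. Among the 44 genes the members highest in this library had a median GC content of 53% and those lowest in it 43.9%. Its deviation followed GC content with a Spearman rho of 0.765 and a Pearson r of 0.766 across the 44 genes. After the trend was taken out the rho was 0.239, yet the library was still the highest for 19 of the 44 genes and the lowest for 4. Its median log2 deviation went from 0.45 to 0.26 in the ATF4 arm and from 0.43 to 0.27 in the 8 synthetases other than Eprs. In the ER arm it went from 0.051 to 0.094, and in the heat shock arm from -0.074 to -0.0022. The cause of what remained was not tested. The 44 genes share that library and are not independent replicates. Printed fold changes of members that moved by over 1.5 times and by over 0.1 on the log2 scale without this library are given both ways.

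**Figure D1:**
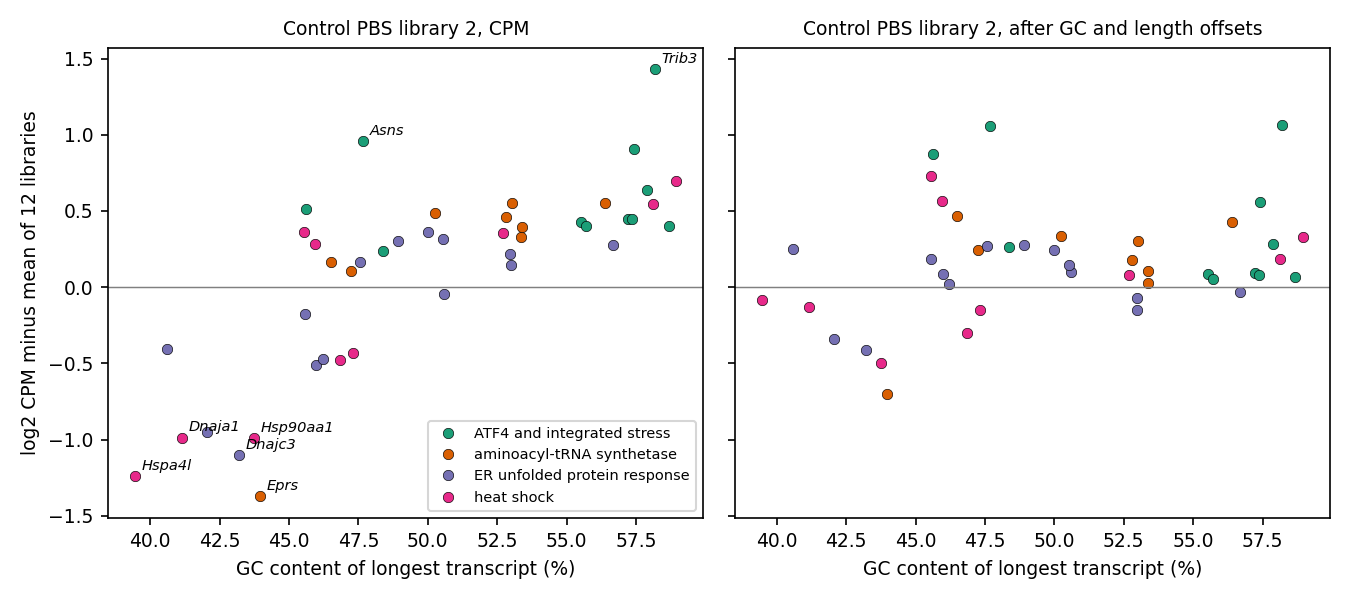
GC content of the longest transcript (x axis, %) against the level in library control PBS 2, as log2 CPM minus the mean of the 12 libraries (y axis), for the 44 genes coloured by arm, before (left) and after (right) removal of the library's trend on GC content and length. On the left the low-GC genes Hspa4l, Dnaja1, Dnajc3, Hsp90aa1 and Eprs lie near or below -1 and Trib3 and Asns lie near or above 1; on the right the slope is smaller.

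Among the synthetases, Eprs was the gene whose level separated VIP from PBS in both viruses. Eprs encodes the enzyme that charges tRNA with glutamate and with proline, and in human monocytes it is also a part of a complex that silences translation of inflammatory mRNAs. The gene lies on chromosome 1 from 185363044 to 185428360 of GRCm38, plus strand. In control PBS libraries 1, 2 and 3 Eprs stood at 191, 92.6 and 192 CPM, and in control VIP at 717, 481 and 460.3 CPM. In ACREB PBS it stood at 159.6, 111 and 158 CPM, and in ACREB VIP at 387, 222 and 277 CPM. Every VIP library was thus above every PBS library of the same virus, and every ACREB VIP library was below every control VIP library. The fitted log2 fold change of VIP over PBS was 1.80 with control virus and 1.05 with ACREB. Within library numbers 1, 2 and 3 the log2 difference was 1.91, 2.38 and 1.26 with control virus and 1.28, 1.00 and 0.81 with ACREB. Part of the size with control virus rests on library control PBS 2, where this gene of 44.0% GC was at its lowest. The fold change was 1.53 without that library and 1.58 with the GC and length trend removed. ACREB alone left Eprs with a log2 fold change of -0.15 in PBS, where the groups overlapped, and of -0.42 without library control PBS 2. In VIP the log2 fold change of ACREB relative to control virus was -0.90. The difference between the VIP responses of the 2 viruses was -0.76, and -0.49 without library control PBS 2. The ACREB values in PBS and in VIP and this difference are given without a test, since the same libraries chose the gene.

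Because VIP is known to act through cyclic AMP and CREB, the promoter window of Eprs (250 bases before to 50 after the annotated start, RefSeq, GRCm38.p6, plus strand, chr1:185362794-185363093) is shown with its matches to the core of the cyclic AMP response element (CRE), TGACG on either strand, in capitals.
Eprs: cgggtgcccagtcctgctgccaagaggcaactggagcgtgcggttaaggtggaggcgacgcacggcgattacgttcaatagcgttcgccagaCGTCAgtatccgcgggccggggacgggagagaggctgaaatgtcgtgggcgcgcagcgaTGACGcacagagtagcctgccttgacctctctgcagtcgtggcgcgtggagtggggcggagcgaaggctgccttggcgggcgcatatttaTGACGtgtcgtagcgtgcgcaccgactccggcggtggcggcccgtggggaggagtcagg
The window held 3 matches, whose most upstream bases lie at -158, -99 and -9 from the start. TGACG was found in 23% of 27025 genes with such a window and in 19 of the 39 members that had one, and 3 or more matches were found in 1.17% of the genes and in 2 members, Eprs and Ppp1r15a. The full CRE, TGACGTCA, which counts as a match on each strand, was found in 2.03% of the genes and among the members in Ppp1r15a alone. A match describes letters in the window and not binding. Windows for Wars, Nars, Atf6, Hspa8 and Hsp90aa1 were not used here.

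The 8 other synthetases did not share the pattern. Each charges its own tRNA: alanine (Aars), glycine (Gars), tryptophan (Wars), asparagine (Nars), serine (Sars), threonine (Tars), tyrosine (Yars) and methionine (Mars1, listed as Mars in the annotation). In control virus Aars stood at 133, 216 and 142 CPM in PBS and 141, 164 and 146 CPM in VIP. Gars stood at 66.2, 101 and 74.2 CPM in PBS and 67.9, 73.9 and 71.7 CPM in VIP, and both genes had their highest value in control PBS library 2 and otherwise overlapping groups. Wars stood at 77.7, 101 and 76.5 CPM in PBS and 77.3, 74.7 and 81.9 CPM in VIP. Nars stood at 177, 199 and 174 CPM in PBS and 159, 186 and 186 CPM in VIP. Sars stood at 119, 186 and 122 CPM in PBS and 113, 135 and 130.2 CPM in VIP. In all 3 of these genes the groups overlapped and library control PBS 2 was the highest of the 6. Tars stood at 62.0, 66.2 and 60.8 CPM in PBS and 57.6, 58.4 and 59.0 CPM in VIP, the only synthetase besides Eprs whose control virus groups did not overlap, with the VIP libraries lower. Yars stood at 58.2, 81.1 and 58.4 CPM in PBS and 53.7, 60.4 and 60.1 CPM in VIP. Mars1 stood at 55.3, 75.1 and 57.1 CPM in PBS and 56.5, 60.4 and 60.7 CPM in VIP, and its 3' end overlaps that of Ddit3 on the opposite strand. For ACREB in PBS the 2 largest fold changes among the 8 were those of Yars and Mars1. With ACREB, Yars stood at 55.4, 64.8 and 52.2 CPM in PBS and 51.9, 61.8 and 53.7 CPM in VIP, and Mars1 at 50.7, 63.0 and 47.1 CPM in PBS and 52.2, 58.3 and 53.0 CPM in VIP. Their log2 fold changes for ACREB in PBS were -0.20 (standard error 0.15) and -0.22 (standard error 0.14), and without library control PBS 2 they were -0.018 and -0.065. The 8 log2 fold changes for VIP in control virus ran from -0.18 (Yars, standard error 0.15) to -0.050 (Nars, standard error 0.12), with a median of -0.12 beside -0.023 over all genes tested. None of the 8 passed the test in any comparison, and with library control PBS 2 left out their median was 0.015, with Yars at -0.0090, Mars1 at 0.073 and Nars at 0.011.

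**Figure D2:**
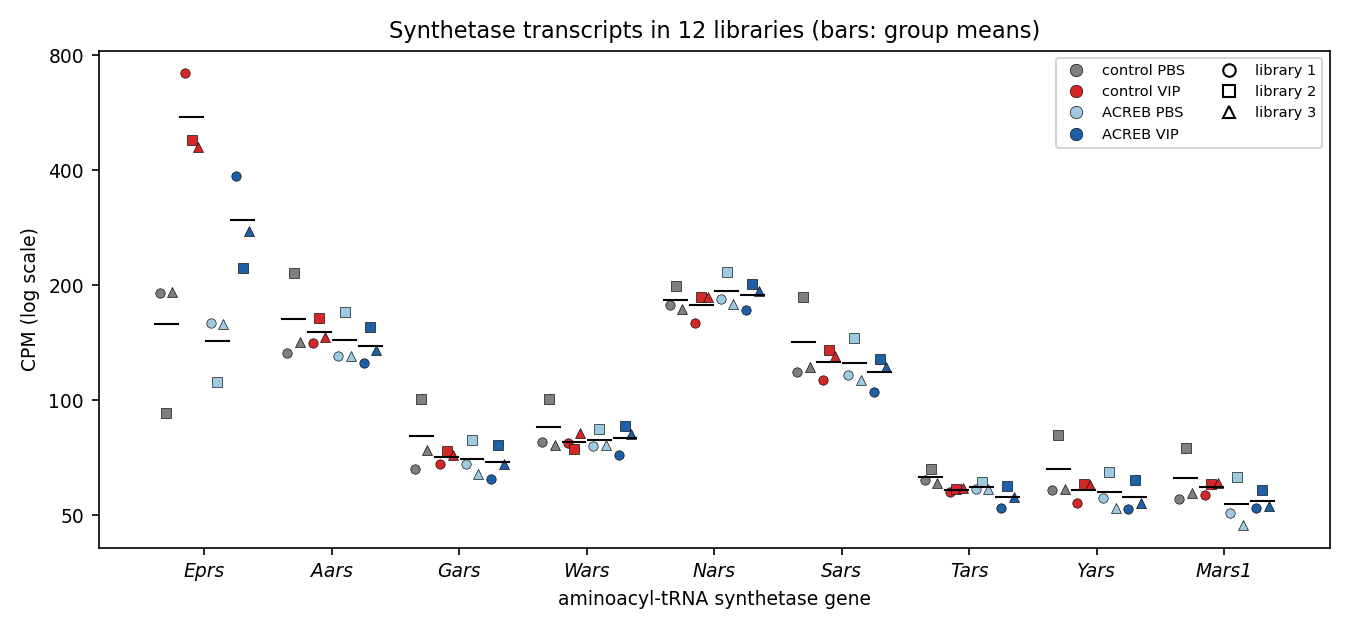
CPM on a log axis (y) of the 9 aminoacyl-tRNA synthetase genes (x) in each of the 12 libraries, with group means as bars, group by colour and library number by symbol. Eprs runs from 92.6 CPM in control PBS library 2 to 717 CPM in control VIP library 1, while the colours overlap for the other 8 genes, apart from the control virus groups of Tars, with library 2 of each group often at the top.

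Divided by transcript length, Eprs averaged 28.1 ± 10.1 CPM per kb in control PBS (SD, n = 3), the 6th highest of the 9 synthetases. In control VIP it averaged 98.1 ± 25.3 CPM per kb (SD, n = 3), the highest of the 9, above Nars at 64.5 ± 5.64 CPM per kb (SD, n = 3). In ACREB PBS it averaged 25.4 ± 4.88 CPM per kb, where it ranked 5th, and in ACREB VIP 52.4 ± 14.9 CPM per kb, where it ranked 2nd after Nars. The ratio of Eprs to the median of the other 8 synthetases, both per kb, was 1.35, 0.453 and 1.33 in the control PBS libraries and 4.95, 3.13 and 3.03 in control VIP. With ACREB the ratio was 1.15, 0.671 and 1.14 in PBS and 2.94, 1.39 and 1.90 in VIP. In each virus the ratios of the VIP libraries were above those of all PBS libraries, and library 2 of the PBS groups had the lowest ratio.

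No gene of the wider set of synthetases passed either. Of 14 further cytosolic synthetase and scaffold genes none passed the test for VIP in control virus (median log2 fold change -0.077, range -0.30 to 0.28), nor did any of 17 mitochondrial synthetases (median -0.010, range -0.26 to 0.31). Genes beside Eprs on chromosome 1 were looked at after the Eprs values had been seen. Bpnt1, a phosphatase gene on the same strand that ends 5266 bases before the Eprs start, stood at 67.2, 84.6 and 58.0 CPM in control PBS and 146, 115 and 117 CPM in control VIP. It rose by a log2 fold change of 0.85 (standard error 0.16, adjusted p = 0.046, edgeR quasi-likelihood test with Benjamini-Hochberg adjustment over all genes tested). That adjusted p was 0.0074 with the library number as a block and 0.17 with the GC and length trend removed (edgeR). It was above 0.05 when any 1 of 10 of the 12 libraries was left out, and reached 0.285 without control VIP library 1. The long noncoding RNA 4930532G15Rik, annotated on the opposite strand 178 bases from the Eprs start, stood at 0.104, 0.115 and 0.265 CPM in control PBS and 1.33, 0.949 and 1.00 CPM in control VIP. It rose by 2.71 on the log2 scale (standard error 0.48, adjusted p = 0.030, edgeR) on 107 fragments over all 12 libraries. The adjusted p was 0.024 with the library number as a block and 0.033 with the GC and length trend removed (edgeR). The call was lost when any 1 of 8 libraries was left out, with an adjusted p of up to 0.173 without control VIP library 1. RefSeq's span of Eprs begins inside this RNA, and the strand setting of the counting is not given in the sources used here, so reads of the 2 genes may not be fully separated. Rab3gap2, Iars2 and Slc30a10, the other tested neighbours, did not pass the test (log2 fold changes 0.41, 0.082 and 0.34).

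The ATF4 arm showed no gene past the test for VIP in control virus. Of all genes tested, 82 of 16761 genes passed, or 0.489% (274 with the library number as a block), and among the 43 members other than Eprs none did. DESeq2 called none of the 43 either. The fold changes of the 11 ATF4-arm genes ran from -0.90 (Trib3) to 0.13 (Chac1), with a median of -0.21. Without library control PBS 2 that median was -0.044 and Chac1 stood at 0.67, and with the GC and length trend removed it was -0.12.

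Atf4 itself, the transcription factor at the centre of the integrated stress response, stood at 126, 187 and 131 CPM in control PBS and 128, 135 and 148 CPM in control VIP. In ACREB PBS it stood at 140.0, 152 and 130.4 CPM and in ACREB VIP at 118, 147 and 139 CPM. The 4 groups overlapped, and its log2 fold change for VIP was -0.11 with control virus (standard error 0.15, adjusted p = 0.815, edgeR) and 0.093 without library control PBS 2. Ddit3 encodes CHOP, the transcription factor that ties prolonged stress to cell death. It stood at 9.35, 13.1 and 10.2 CPM in control PBS, 9.57, 9.79 and 8.82 CPM in control VIP, 7.74, 8.41 and 8.37 CPM in ACREB PBS and 7.86, 8.34 and 8.69 CPM in ACREB VIP. The ACREB libraries of Ddit3 all lay below the control virus libraries of the same treatment, without passing the test (log2 fold change -0.41, standard error 0.15, adjusted p = 0.696 in PBS, edgeR; -0.26 without library control PBS 2), and its 3' end overlaps Mars1.

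Trib3, a pseudokinase that is a target of ATF4 and CHOP, was near the limit of counting. It stood at 0.831, 2.82 and 2.23 CPM in control PBS, 0.409, 1.30 and 1.43 CPM in control VIP, 1.04, 1.15 and 0.293 CPM in ACREB PBS and 1.07, 1.20 and 0.310 CPM in ACREB VIP. Its 258 fragments over 12 libraries gave standard errors of 0.61 for VIP with control virus and of 0.63 when ACREB was compared in PBS, and the log2 fold changes of -0.90 and -1.23 did not pass the test. Within library numbers 1, 2 and 3 Trib3 was lower with VIP in control virus by log2 differences of -1.02, -1.12 and -0.65, while ACREB in PBS gave 0.32, -1.29 and -2.93, and with the block the adjusted p was 0.441 and 0.489 (edgeR). Without library control PBS 2 the fold change for VIP in control virus was -0.55. Ddit4 encodes REDD1, a brake on the kinase mTORC1. It stood at 101, 143 and 92.2 CPM in control PBS and 75.3, 89.1 and 81.1 CPM in control VIP, and the VIP libraries all lay below the PBS libraries. In ACREB PBS Ddit4 stood at 94.7, 122 and 78.7 CPM and in ACREB VIP at 77.6, 89.3 and 76.3 CPM, where the groups overlapped. The log2 fold change of Ddit4 was -0.45 with control virus (standard error 0.18, adjusted p = 0.679, edgeR) and -0.24 without library control PBS 2. Ddit4 and Tars were the 2 members, besides Eprs, whose control virus groups did not overlap, a share of 4.65% of 43 beside 9.8% of all genes tested.

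Asns encodes asparagine synthetase, which makes asparagine and is a classical target of the amino acid response. Its promoter window (chr6:7693160-7693459, minus strand, RefSeq, GRCm38.p6) is shown because it holds the response element for which this gene is known, in capitals, 23 to 16 bases before the start.
Asns: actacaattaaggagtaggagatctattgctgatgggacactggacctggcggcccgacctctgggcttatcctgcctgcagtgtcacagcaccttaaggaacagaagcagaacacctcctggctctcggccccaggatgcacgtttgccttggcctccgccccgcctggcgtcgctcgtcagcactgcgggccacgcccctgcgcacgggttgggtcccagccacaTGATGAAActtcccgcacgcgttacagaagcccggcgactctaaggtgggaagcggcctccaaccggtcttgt
The element was searched as TGATGNAA on both strands and was found in 4.51% of all genes with a window and in 8 of the 39 members: Trib3, Chac1, Asns, Aars, Gars, Tars, Yars and Herpud1. Asns stood at 20.7, 39.0 and 21.9 CPM in control PBS, 17.9, 27.2 and 20.6 CPM in control VIP, 14.1, 24.3 and 16.04 CPM in ACREB PBS and 14.7, 20.4 and 14.3 CPM in ACREB VIP. Library 2 was the highest of its group in all 4 groups, so the spread within groups was wide and groups overlapped. Within each library number the ACREB library was lower, by 0.56, 0.68 and 0.45 on the log2 scale in PBS and by 0.28, 0.41 and 0.53 in VIP. The log2 fold change for ACREB in PBS was -0.58 (standard error 0.28, adjusted p = 0.956, edgeR), and -0.23 without library control PBS 2. With the library number as a block and the GC and length trend removed it was -0.67 with an adjusted p of 0.01, and with the block alone the adjusted p was 0.08. In VIP the corresponding values for Asns were -0.41 without the block and -0.46 with both corrections, at an adjusted p of 0.036 (edgeR). The fit with both corrections called 317 of all 16761 genes tested for ACREB in PBS and 593 in VIP, against 6 and 9 without corrections.

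None of the other 6 genes of the arm passed the test for VIP in control virus without both corrections. They are Chac1, which breaks down glutathione, the serine and glycine enzymes Psat1, Phgdh and Shmt2, Sesn2, a sensor of leucine that restrains mTORC1, and Ppp1r15a (GADD34), which brings a phosphatase to eIF2. Over the 12 libraries Psat1 ranged from 185 to 255 CPM, Phgdh from 121 to 197 CPM and Shmt2 from 43.0 to 66.1 CPM. Sesn2 ranged from 70.4 to 116 CPM, Ppp1r15a from 43.9 to 74.7 CPM and Chac1, the second lowest member of the arm per kb after Trib3, from 1.56 to 5.40 CPM. Psat1 was lower in all ACREB PBS than in all control PBS libraries (-0.22, adjusted p = 0.956, edgeR). Sesn2 was lower in all ACREB VIP than in all control VIP libraries, with a log2 fold change of -0.31 (adjusted p = 0.936, edgeR). With the block and with the GC and length trend removed, Sesn2 passed as higher with VIP in control virus (0.28, adjusted p = 0.038, edgeR). In the same fit Sesn2 passed as lower with ACREB in VIP (-0.31, adjusted p = 0.022, edgeR). That fit called 584 and 593 of all 16761 genes tested in these 2 comparisons, against 82 and 9 without corrections.

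**Figure D3:**
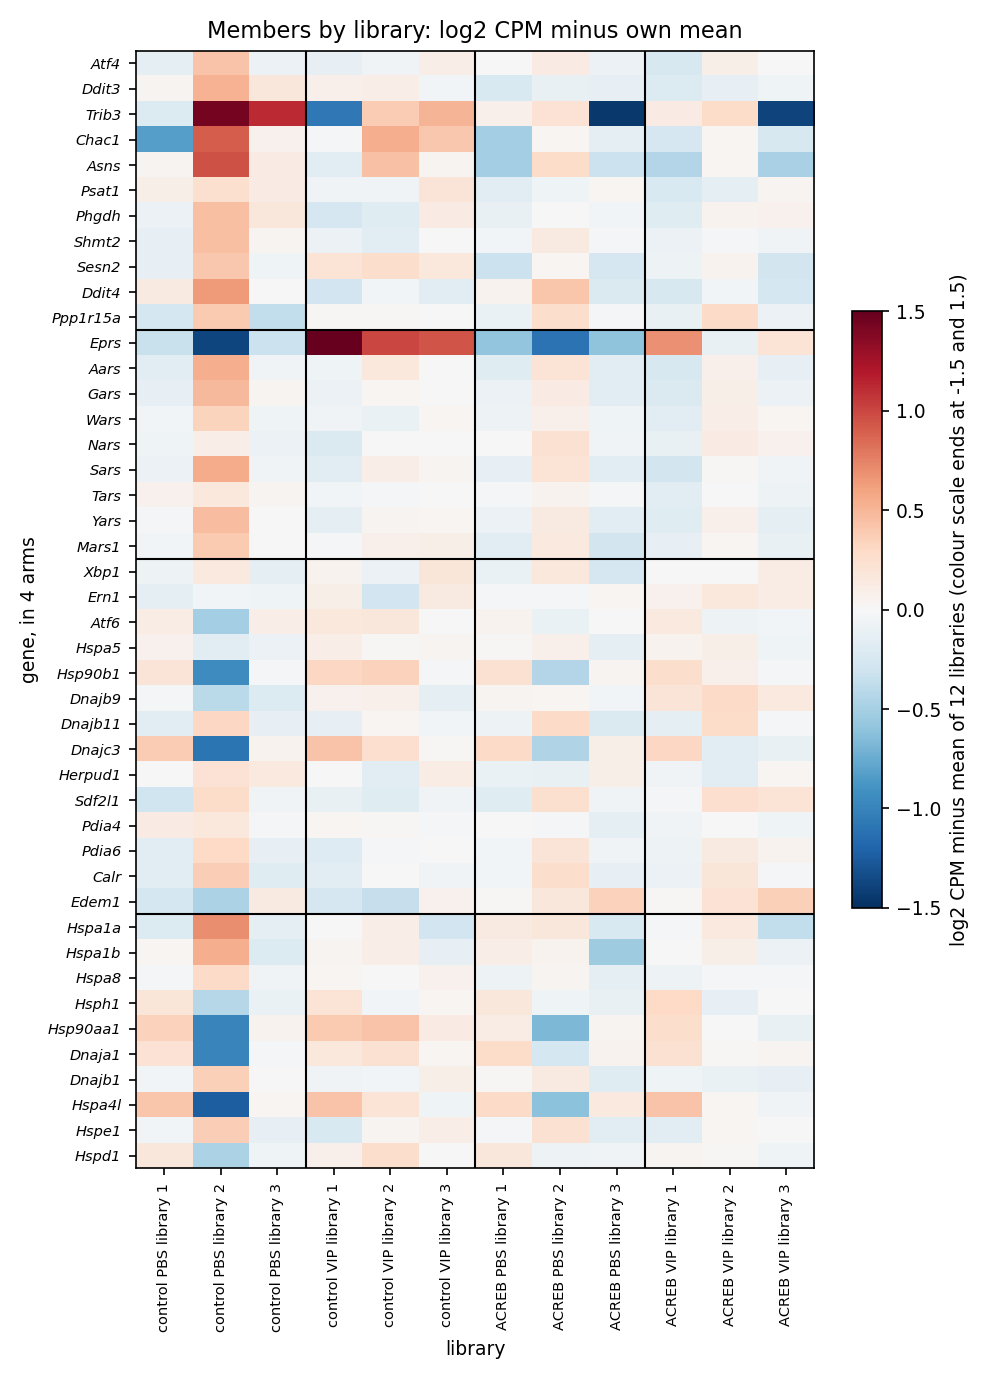
Levels of the 44 genes (rows, in the order ATF4 and integrated stress, synthetases, ER, heat shock) in the 12 libraries (columns), as log2 of CPM plus 0.1 minus the gene's mean over the libraries; red is higher and blue lower, and the colour scale ends at -1.5 and 1.5. The second column, control PBS library 2, departs most from white in all 4 arms, and the Eprs row is red in the 3 control VIP columns.

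In the ER arm too, no gene passed the test for VIP. Its 14 fold changes in control virus ran from -0.14 (Herpud1) to 0.40 (Hsp90b1), with a median of 0.040 beside -0.023 for all genes tested, and the median was -0.024 with the GC and length trend removed. Of the sensors, Ern1 stood at 24.2, 25.8 and 25.4 CPM in control PBS and 28.3, 21.7 and 29.2 CPM in control VIP, with 26.2, 26.0 and 27.2 CPM in ACREB PBS and 27.8, 29.6 and 28.7 CPM in ACREB VIP. Atf6 stood at 82.2, 53.2 and 81.6 CPM in control PBS, 84.6, 85.8 and 76.5 CPM in control VIP, 78.6, 70.7 and 75.7 CPM in ACREB PBS and 84.3, 72.0 and 73.7 CPM in ACREB VIP. Its lowest library was control PBS 2, and its log2 fold change of 0.19 for VIP in control virus fell to 0.0052 without it. Xbp1, whose mRNA IRE1 splices, stood at 45.3, 52.8 and 43.3 CPM in control PBS, 49.6, 45.0 and 54.2 CPM in control VIP, 44.6, 53.1 and 40.2 CPM in ACREB PBS and 48.1, 47.4 and 51.4 CPM in ACREB VIP, so all 4 groups overlapped. These counts do not separate the spliced from the unspliced form.

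Hspa5 encodes BiP, the main chaperone of the ER lumen and the usual readout of the unfolded protein response. Its promoter window (chr2:34771840-34772139, plus strand, RefSeq, GRCm38.p6) is shown with the ER stress response element, searched as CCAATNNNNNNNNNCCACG on both strands, in capitals, 65 to 47 bases before the start.
Hspa5: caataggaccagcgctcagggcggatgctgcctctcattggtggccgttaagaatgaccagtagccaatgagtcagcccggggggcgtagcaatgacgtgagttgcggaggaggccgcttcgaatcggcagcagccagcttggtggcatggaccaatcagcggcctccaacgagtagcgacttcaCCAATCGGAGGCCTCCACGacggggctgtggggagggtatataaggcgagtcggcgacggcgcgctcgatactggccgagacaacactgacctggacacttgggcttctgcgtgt
That element was found in 0.137% of all genes with a window and in 5 members, all of the ER arm: Hspa5, Hsp90b1, Dnajc3, Pdia6 and Calr. Hspa5 stood at 634, 537 and 572 CPM in control PBS, 649.6, 613 and 624 CPM in control VIP, 614, 638 and 551 CPM in ACREB PBS and 628, 643 and 581 CPM in ACREB VIP. The groups overlapped, and the log2 fold change for VIP was 0.11 with control virus (standard error 0.10, adjusted p = 0.782, edgeR) and 0.039 with ACREB (standard error 0.10). Without library control PBS 2 the first of these was 0.059.

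The 2 ER genes with the largest fold changes for VIP in control virus were both at their lowest in library control PBS 2. Hsp90b1, the ER form of HSP90, stood at 499.6, 227 and 431 CPM in control PBS, 544, 557 and 429 CPM in control VIP, 515, 323 and 449 CPM in ACREB PBS and 527, 463 and 431 CPM in ACREB VIP. Its log2 fold change was 0.40 (standard error 0.25, adjusted p = 0.782, edgeR) with that library and 0.13 without it. Dnajc3, a co-chaperone of BiP that also inhibits PERK, stood at 338, 121 and 268 CPM in control PBS, 347, 309 and 261 CPM in control VIP, 317, 189 and 276 CPM in ACREB PBS and 321, 231 and 239 CPM in ACREB VIP. Its log2 fold change was 0.34 with library control PBS 2 and 0.011 without it.

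For ACREB in PBS the largest fold changes of the ER arm were those of Edem1 and Dnajb9. Edem1, which directs misfolded glycoproteins to degradation, stood at 63.2, 54.5 and 83.4 CPM in control PBS, 63.5, 59.7 and 79.0 CPM in control VIP, 76.9, 84.9 and 96.3 CPM in ACREB PBS and 76.9, 88.1 and 97.1 CPM in ACREB VIP. Library 3 was the highest of its group throughout, and the log2 fold changes of ACREB over control virus were 0.36 in PBS (standard error 0.17, adjusted p = 0.956, edgeR) and 0.37 in VIP (standard error 0.17, adjusted p = 0.866, edgeR). Without library control PBS 2 the PBS value was 0.24. With the block and with the GC and length trend removed, Edem1 passed the test in VIP (0.38, adjusted p = 0.037, edgeR). In PBS it did not pass in that fit (adjusted p = 0.223, edgeR). Of all 16761 genes tested the fit called 593 for ACREB in VIP, against 9 without corrections. Dnajb9, a co-chaperone of BiP that represses IRE1, stood at 83.8, 64.6 and 74.5 CPM in control PBS, 89.6, 90.1 and 77.3 CPM in control VIP, 88.4, 87.2 and 83.3 CPM in ACREB PBS and 98.1, 105 and 94.9 CPM in ACREB VIP. The ACREB VIP libraries were the 3 highest of the 12, and the log2 fold change of ACREB relative to control virus in VIP was 0.21 (standard error 0.11, adjusted p = 0.966, edgeR).

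The other 6 ER genes are given by their ranges. The folding enzymes Pdia4 and Pdia6 ranged from 216 to 267 CPM and from 204 to 289 CPM over the 12 libraries, and the lectin chaperone Calr, the most abundant member of the arm per kb, ranged from 604 to 883 CPM. Dnajb11, another BiP co-chaperone, ranged from 95.5 to 138 CPM, Sdf2l1 from 14.3 to 21.3 CPM and Herpud1, a part of the ER-associated degradation machinery, from 36.8 to 47.9 CPM. Sdf2l1 was higher in all ACREB VIP than in all control VIP libraries (0.26, standard error 0.16), without passing the test.

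The heat shock arm likewise held no gene past the test in any comparison. For VIP in control virus its 10 fold changes ran from -0.23 (Hspa1a) to 0.42 (Hsp90aa1), with a median of 0.059, and of 0.0085 with the GC and length trend removed. Hspa1a and Hspa1b encode the stress-inducible HSP70, whose transcripts rise steeply after heat shock. They are near-identical copies, so the counting may have split or dropped their reads, and each value is uncertain. The Hspa1a promoter window (chr17:34972107-34972406, minus strand, RefSeq, GRCm38.p6) is shown with its match to a heat shock element, searched as GAANNTTC, in capitals, 104 to 97 bases before the start.
Hspa1a: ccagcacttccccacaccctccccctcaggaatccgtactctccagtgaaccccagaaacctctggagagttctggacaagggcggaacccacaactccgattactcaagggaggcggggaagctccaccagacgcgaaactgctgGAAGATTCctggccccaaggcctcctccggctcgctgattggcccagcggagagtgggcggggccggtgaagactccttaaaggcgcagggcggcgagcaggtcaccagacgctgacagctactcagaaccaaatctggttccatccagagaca
GAANNTTC, which reads the same on both strands, was found in 9.04% of all genes with a window and in 7 members, of which 6 belong to the heat shock arm (Hspa1a, Hspa1b, Hsph1, Dnaja1, Hspe1 and Hspd1) and the other is Asns. Hspa1a stood at 4.78, 8.97 and 4.99 CPM in control PBS, 5.53, 5.90 and 4.49 CPM in control VIP, 6.05, 6.23 and 4.68 CPM in ACREB PBS and 5.39, 6.11 and 4.24 CPM in ACREB VIP. Hspa1b stood at 5.82, 8.39 and 4.94 CPM in control PBS, 5.88, 6.10 and 5.23 CPM in control VIP, 6.11, 5.93 and 3.92 CPM in ACREB PBS and 5.67, 6.05 and 5.38 CPM in ACREB VIP. Both were low in every group and highest in control PBS library 2, and the log2 fold changes for VIP in control virus were -0.23 (standard error 0.26) and -0.15 (standard error 0.22). Without library control PBS 2 they were 0.12 and 0.091.

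Hsp90aa1, Dnaja1 and Hspa4l had the largest positive fold changes of the arm for VIP in control virus, and all 3 had their lowest level in control PBS library 2. Hsp90aa1, the inducible cytosolic HSP90, stood at 930.3, 369.9 and 764 CPM in control PBS, 966, 992 and 797 CPM in control VIP, 794, 460.1 and 755 CPM in ACREB PBS and 885, 739 and 683 CPM in ACREB VIP. Its log2 fold change of 0.42 (standard error 0.29, adjusted p = 0.782, edgeR) was 0.11 without that library. Dnaja1, a co-chaperone of HSP70, stood at 272, 118 and 231 CPM in control PBS, 261, 274 and 238 CPM in control VIP, 283, 194 and 243 CPM in ACREB PBS and 274, 237 and 240.1 CPM in ACREB VIP. Its log2 fold change was 0.32 with that library and 0.032 without it. Hspa4l, of the HSP110 family, stood at 187, 58.9 and 142 CPM in control PBS, 188, 161 and 134 CPM in control VIP, 170.4, 91.2 and 154 CPM in ACREB PBS and 188, 142 and 134 CPM in ACREB VIP. Its log2 fold change of 0.32 became -0.033 without that library, so the direction itself rested on it.

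The remaining 5 heat shock genes did not separate the groups for VIP. Hspa8, the constitutive HSC70 and the most abundant member of the arm per kb, ranged from 1410.2 to 1877 CPM over the 12 libraries. Dnajb1, the HSP40 partner of HSP70, ranged from 45.5 to 65.9 CPM, and Hsph1, another HSP110, from 91.1 to 151 CPM. The mitochondrial chaperonin genes Hspd1 and Hspe1, which lie head to head and overlap on opposite strands, ranged from 173 to 288 CPM and from 79.2 to 119.6 CPM. Hspa8 and Dnajb1 were lower in all ACREB VIP than in all control VIP libraries, with log2 fold changes of -0.073 and -0.089, and neither passed the test.

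The arms can be set side by side by their mean levels. The mean log2 CPM over the genes of the ATF4 arm was 5.26 ± 0.38 in control PBS and 5.09 ± 0.16 in control VIP (SD, n = 3), and that of the ER arm was 6.84 ± 0.057 and 6.92 ± 0.021. For the heat shock arm it was 6.67 ± 0.15 and 6.80 ± 0.071, and for the 8 synthetases other than Eprs 6.58 ± 0.24 and 6.47 ± 0.073. With ACREB the ATF4 arm stood at 4.97 ± 0.19 in PBS and 4.93 ± 0.15 in VIP, the ER arm at 6.91 ± 0.025 and 6.97 ± 0.025, and the heat shock arm at 6.69 ± 0.13 and 6.73 ± 0.086. The 8 synthetases stood at 6.45 ± 0.15 and 6.42 ± 0.12. These are averages over chosen genes and carry no test. Over all genes tested the mean was 3.84 ± 0.079 in control PBS and 3.90 ± 0.0055 in control VIP.

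**Figure D4:**
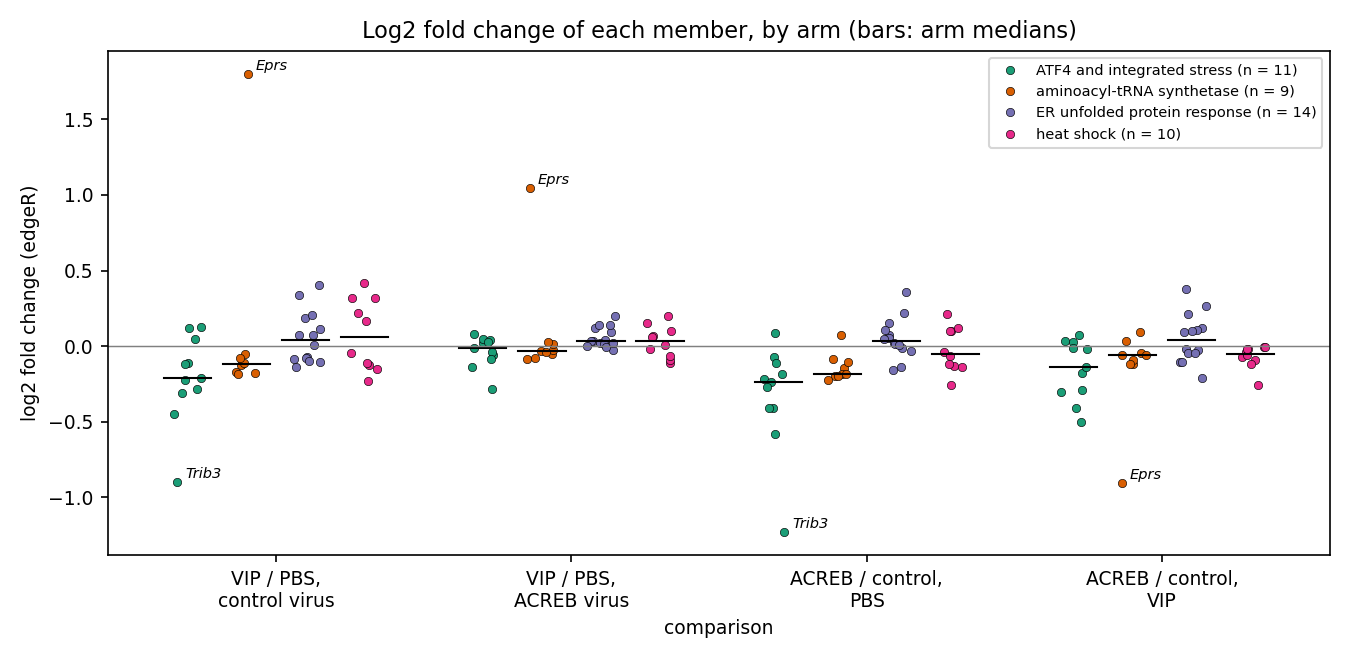
Log2 fold change from the edgeR fit (y axis) of each of the 44 genes, coloured by arm, in the 4 comparisons (x axis), with arm medians as bars and genes beyond 0.7 in either direction named. Eprs lies at 1.80 and 1.05 for VIP and at -0.90 for ACREB in VIP, Trib3 lies at -0.90 and -1.23 where its standard error was above 0.6, and the other 42 genes lie within 0.6 of 0 in all 4 comparisons.

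With ACREB virus the fold changes of the other 43 members for VIP covered a narrower range than with control virus. The ends of the control virus range were Trib3, near the limit of counting, and Hsp90aa1, which stood at 0.11 without library control PBS 2. The difference in range was not tested. Of all genes 2, or 0.0119%, passed the test for VIP in ACREB virus (13 with the block), and none of the 43 members did. Their fold changes ran from -0.28 (Ddit4) to 0.20 (Dnajb9). Ern1 and Dnajb9 were the 2 members besides Eprs whose groups did not overlap, with VIP higher by 0.12 and 0.20 on the log2 scale, a share of 4.65% of 43 beside 6.72% of all genes tested.

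None of the 43 members other than Eprs passed the test for ACREB against control virus in either treatment. In PBS 6 of all genes tested passed, or 0.0358%, and in VIP 9 passed, or 0.0537% (37 and 61 with the block). DESeq2 called none of the 43 in either treatment. The median fold change of the ATF4 arm was -0.24 in PBS and -0.14 in VIP, beside 0.0075 and 0.0020 over all genes tested. The PBS comparison shares its control PBS libraries with the VIP comparison in control virus, and without library control PBS 2 the PBS median of the ATF4 arm was -0.079. In PBS Ddit3 and Psat1 were lower and Ern1 higher without overlap between groups, a share of 6.98% of 43 beside 8.78% of all genes tested. In VIP there were 6 such genes, with Ddit3, Sesn2, Hspa8 and Dnajb1 lower and Dnajb9 and Sdf2l1 higher, a share of 14.0% of 43 beside 14% of all genes tested.

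The test of whether ACREB changed the response to VIP called no gene (0%) by edgeR or DESeq2, with 201 genes and none of the 43 members at an unadjusted p under 0.05. Among those members the difference between the 2 responses ran from -0.32 (Dnajc3) to 0.95 (Trib3, standard error 0.91), and without library control PBS 2 these were 0.0026 and 0.59. For Eprs the difference was -0.76 on the log2 scale, as given above. With 1 library left out at a time it ran from -0.998 (without ACREB VIP library 1) to -0.49 (without control PBS library 2).

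Beyond the 44 genes, 133 others from 7 lists of the same pathways were read, of which 130 passed the filter (Fgf21, Derl3 and Erp27 did not). The lists were drawn up with earlier results of these data known, so the tests of their genes are not an independent search. For VIP in control virus 1 of the 130 rose and none fell, beside 82 of all 16761 genes tested, or 0.489%. The 1 gene was Txndc11, a thioredoxin-domain protein of the ER membrane that belongs to the list of protein disulfide isomerases and ER oxidases. Its promoter window (chr16:11134483-11134782, minus strand, RefSeq, GRCm38.p6) is shown for comparison with that of Eprs, with TGACG on either strand in capitals. The window also held 3 matches. Among the members Ppp1r15a had 3 matches too, and Atf4 and Trib3 had 2 each, and none of them passed the test for VIP in either virus.
Txndc11: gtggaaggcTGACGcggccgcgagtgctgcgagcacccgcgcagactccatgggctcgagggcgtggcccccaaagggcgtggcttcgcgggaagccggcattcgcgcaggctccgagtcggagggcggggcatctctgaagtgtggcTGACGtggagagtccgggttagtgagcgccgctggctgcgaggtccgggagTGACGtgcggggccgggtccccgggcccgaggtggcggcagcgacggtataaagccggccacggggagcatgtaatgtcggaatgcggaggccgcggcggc
Txndc11 stood at 23.7, 28.6 and 25.0 CPM in control PBS and 105, 82.2 and 90.6 CPM in control VIP, and at 23.0, 26.9 and 22.2 CPM in ACREB PBS and 52.4, 49.1 and 49.2 CPM in ACREB VIP. The replicates were close together and the order of the groups was that of Eprs: PBS lowest in both viruses, ACREB VIP between, control VIP highest. Txndc11 rose with VIP by 1.85 on the log2 scale in control virus (standard error 0.13, adjusted p = 5.3e-05, edgeR) and by 1.06 in ACREB virus (standard error 0.13, adjusted p = 0.02, edgeR). In VIP it was lower with ACREB, with a log2 fold change of -0.88 (standard error 0.12, adjusted p = 0.027, edgeR), and in PBS the difference of -0.098 did not pass (adjusted p = 0.956, edgeR). The difference between the VIP responses was -0.79 (standard error 0.18) and did not pass after adjustment. The control virus call held when each of the 12 libraries was left out in turn, with adjusted p up to 8.2e-04. The ACREB virus call was lost without ACREB PBS library 1 or 3 or any of the 3 ACREB VIP libraries (adjusted p = 0.263, 0.228, 0.170, 0.094 and 0.132), and the call of ACREB in VIP was lost in 9 of 12 such fits (adjusted p up to 0.225, without ACREB VIP library 2). The gene overlaps Snn on the opposite strand.

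A further 2 genes passed for VIP in control virus with library number as a block and not without it. The block takes out the differences that libraries of the same number share, and with it 274 of all 16761 genes tested passed. Slc7a11, the cystine importer xCT and an ATF4 target, stood at 4.62, 3.39 and 6.05 CPM in control PBS, 19.0, 19.9 and 9.03 CPM in control VIP, 2.95, 3.69 and 5.74 CPM in ACREB PBS and 13.9, 7.80 and 7.71 CPM in ACREB VIP. Every VIP library was above every PBS library of the same virus, and the log2 fold change in control virus was 1.77 (standard error 0.37, adjusted p = 0.072 without the block and 0.039 with it, edgeR). Its promoter window (chr3:50443564-50443863, minus strand, RefSeq, GRCm38.p6) held a pair of facing TGATGNAA matches, in capitals, and none of TGACG.
Slc7a11: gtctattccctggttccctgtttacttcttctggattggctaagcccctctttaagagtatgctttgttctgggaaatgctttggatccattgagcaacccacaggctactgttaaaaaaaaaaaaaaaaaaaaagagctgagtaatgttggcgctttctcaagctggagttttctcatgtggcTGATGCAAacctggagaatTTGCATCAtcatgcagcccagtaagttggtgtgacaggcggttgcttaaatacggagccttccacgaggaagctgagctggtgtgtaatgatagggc
Bag3, a co-chaperone of HSP70 in selective autophagy and a target of HSF1, stood at 76.6, 125 and 76.7 CPM in control PBS, 210.2, 154 and 133 CPM in control VIP, 77.5, 89.9 and 67.3 CPM in ACREB PBS and 127, 118 and 95.6 CPM in ACREB VIP. Every VIP library of Bag3 was likewise above every PBS library of the same virus, and its log2 fold change in control virus was 0.84 (standard error 0.22, adjusted p = 0.203 without the block and 0.03 with it, edgeR). With the GC and length trend removed and no block the adjusted p was 0.027. Neither gene passed the test for VIP in ACREB virus (log2 fold changes 1.25 and 0.54) or for the difference between the viruses, which was -0.52 for Slc7a11 and -0.30 for Bag3 (-0.33 and -0.58 without library control PBS 2).

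None of the other listed genes passed for VIP in control virus in the fit without corrections. The 12 genes of eIF2 kinases and eIF2 control had a median log2 fold change of 0.038 and none passed, and the 21 other ATF4-linked genes tested had a median of -0.10 and none passed. Among 22 other ER chaperones, sensors and degradation genes the median was -0.049, and among 28 other heat shock factors and chaperones it was -0.0055, again with none past the test. Over all 130 genes the median was -0.034. With ACREB, 1 of the 130 rose for VIP and 1 fell for ACREB in VIP, Txndc11 in both cases. Of all genes tested 0.0119% and 0.0537% passed in these 2 comparisons. None of the 130 passed for ACREB in PBS or for the difference between the VIP responses.

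**Figure D5:**
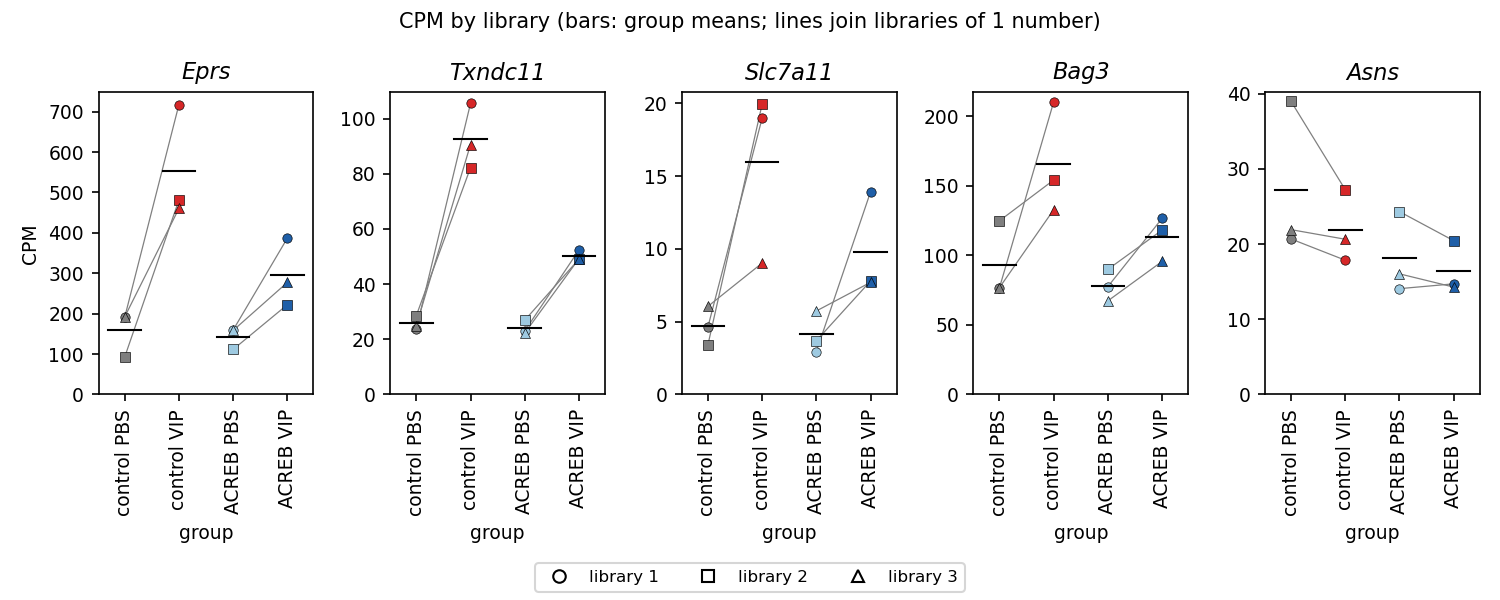
CPM (y axis, from 0) of Eprs, Txndc11, Slc7a11, Bag3 and Asns in the 4 groups (x axis), with group means as bars and lines joining the PBS and VIP libraries of the same virus and number. For Eprs, Txndc11, Slc7a11 and Bag3 all 6 lines rise, and for Asns 5 of 6 fall.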

How the data were processed

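Polyadenylated RNA of 12 libraries was sequenced as strand-specific paired reads, per the labels' protocols. The authors deposited a table of raw counts, whole numbers of fragments per Ensembl gene. Reads were processed with Trimmomatic 0.39, STAR 2.7.1a and HTSeq 0.11.2 on GRCm38, per the submitters' processing notes. The counting's strand setting is not given in the sources used here, which leaves genes with an overlap on the opposite strand uncertain (Ddit3 with Mars1, Hspd1 with Hspe1, and Shmt2, Ppp1r15a, Aars, Yars, Hsp90b1, Pdia6, Hspa1a, Dnaja1 and Txndc11 with genes outside the set).

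Names and positions were taken from GENCODE vM21 (GRCm38). The members and lists were chosen with earlier results of these data known. The counts were tested with edgeR 4.0.16 (R 4.3.3): filterByExpr on the 4 groups, TMM, glmQLFit and glmQLFTest on all 12 libraries with a mean per group, Benjamini-Hochberg adjustment over 16761 genes and a threshold of 0.05 (residual df 8, prior df 3.99, common dispersion 0.0381). The standard error printed is the log2 fold change over the square root of the quasi-likelihood F. Log2 CPM used a prior count of 2. Alternatives were the library number as a block, offsets for each library's trend on GC content and transcript length (natural splines with 5 df), both together, DESeq2 1.42.0, its size factors in edgeR, no filter, the 2 groups compared alone, and each library left out.

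Libraries of the same number deviated together from their group means: on edgeR's log2 CPM all 18 pairs correlated above 0.1 (0.132 to 0.679), and on log2 of CPM plus 2 it was 17 of 18 (0.0864 to 0.833), with each of the 12 libraries closest to one of its own number on both scales. The labels do not say what a number marks, and the pairs were taken as real from this check. The fit without corrections nevertheless has no block, so its adjusted p-values and calls leave the pairing out. Every library's values are given for Eprs, 8 named regulators and markers, all synthetases in control virus, and the 2 members of each arm with the largest fold change for ACREB in PBS and for VIP in control virus; of the wider lists, genes past the threshold with or without the block are named. The neighbours of Eprs were added after its values were seen.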

Additional observations from a re-analysis of the deposited data

How the results depend on the processing

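No member other than Eprs passed under the replicate block alone, under the GC and length offsets alone, with DESeq2 or its size factors, without the filter, with the 2 groups alone, or without any 1 library. With the replicate block and the offsets together 1 of the 43 passed for VIP in control virus, 1 for ACREB in PBS and 3 for ACREB in VIP. In the same fit and order, 584, 317 and 593 of all 16761 genes tested passed. The replicate block alone changed the calls of Slc7a11 and Bag3 and no other call among the named genes in the comparisons they were tested in.

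Counts over all genes moved widely. For VIP in control virus the 82 became 274 with the replicate block, 148 with the offsets, 584 with both, 245 with DESeq2, 131 without the filter, 2 with the 2 groups alone, and 25 to 91 with 1 library left out (25 without control VIP 1, 30 without control PBS 1, 43 without control VIP 2 and 51 without control VIP 3). For VIP in ACREB virus the 2 became 13, 5, 46, 27, 13, 1 and 1 to 5 in the same order. For ACREB in PBS the 6 became 37, 33, 317, 94, 15, 0 and 0 to 3. For ACREB in VIP the 9 became 61, 42, 593, 122, 18, 12 and 0 to 41 with 1 library left out (41 without control PBS 2, and 0 without control VIP 1 or 2 or any ACREB VIP library). The test of the difference between the VIP responses stayed at 0 throughout. The higher and lower calls for VIP in control virus were 71 and 11 as reported, 184 and 90 with the block, 357 and 227 with both corrections, and 178 and 67 with DESeq2; for ACREB in PBS they were 1 and 5 as reported, 14 and 23 with the block, and 32 and 62 with DESeq2. Of the wider lists, the 1 gene for VIP in control virus became 3 with the block, 2 with the offsets, 9 with both, 4 with DESeq2, 3 without the filter and 1 to 2 with 1 library left out. The 1 gene for VIP in ACREB virus became 0 with the 2 groups alone (Txndc11, adjusted p = 0.058) and 0 to 1 with 1 library left out. For ACREB in PBS 0 became 2 with both corrections, and for ACREB in VIP 1 became 6 with both and 0 to 1 with 1 library left out. The cause of these shifts was not tested.

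Directions turned for small fold changes. With the offsets alone and with both corrections, VIP in control virus gave 0.052 and 0.054 for Atf4, -0.024 and -0.025 for Atf6, -0.032 and -0.024 for Hspa5, 0.026 and 0.029 for Hspa1b, 0.047 and 0.047 for Mars1, -0.17 and -0.17 for Edem1, -0.085 and -0.071 for Dnajb9, and -0.031 and -0.026 for Hspa4l. With 1 library left out, the same comparison ran from -0.21 to 0.093 for Atf4, -0.39 to 0.12 for Hspa1a, -0.31 to 0.091 for Hspa1b, -0.50 to 0.039 for Asns, -0.16 to 0.073 for Mars1, -0.12 to 0.19 for Edem1 and -0.033 to 0.68 for Hspa4l. ACREB in PBS ran from -0.42 to 0.012 for Eprs, -0.37 to 0.033 for Bag3, -0.065 to 0.46 for Dnaja1 and -0.50 to 0.034 for Slc7a11. VIP in ACREB virus ran from -0.32 to 0.13 for Asns, and its difference between viruses from -0.18 to 0.44. Low counts limited Trib3, Chac1, Hspa1a and Hspa1b.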
